A study of Mus musculus with 6 samples.

Results

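Kinesins and cytoplasmic dynein, the motors that carry cargo along axons, were read in RNA of dorsal root ganglia (DRG) after a lateral ankle sprain (LAS). The genes were taken by symbol: the Kif genes for kinesin heavy chains, Klc1 to Klc4 for kinesin light chains, the Dync1 and Dync2 genes for dynein subunits, Dynll1 and Dynll2 for the LC8 dynein light chains, and Dctn1 to Dctn6 for dynactin subunits. Of 19306 genes with values, 56 were such motor genes. Kif2b matched by symbol but was blank in every library and was not analysed. The study used wild type C57BL/6 mice of both sexes, 6 to 8 weeks of age, and the sex behind each library is not stated. In the LAS group, the ATFL and the CFL, both ligaments of the outer ankle, were transected through a skin incision. Sham mice received the incision and kept both ligaments, so anesthesia and incision were common to both groups. Ipsilateral L3-5 DRG were taken on day 14, with 3 LAS and 3 sham libraries. The ligaments lie far from the DRG, the tissue is a mix of sensory neurons, glia, vascular and immune cells, and no source states how many mice entered a library.

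Sensory neurons of the DRG send an axon from the ganglion to skin, muscle and joint, and their proteins, vesicles and mitochondria travel its whole length on microtubules. Most kinesins walk toward the plus end of the microtubule, which points away from the cell body in axons, and cytoplasmic dynein 1 with its cofactor dynactin walks back toward the cell body. Other kinesins move cargo within cilia or build the mitotic spindle, so the symbols also take in motors best known from ciliated or dividing cells.

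The values are FPKM, which are scaled to gene length and library depth. Sham replicate 3 stood apart. On average it correlated at 0.969 with the rest, where each of the other 5 reached 0.984 to 0.986. Summed markers of bone marrow myeloid cells reached 2007 FPKM there, against 63.1 to 398 FPKM in the other 5 libraries, and all 9 of these markers were highest there. The sum of 5 erythroid markers was 8112 FPKM in sham replicate 3 and 2214 to 3988 FPKM elsewhere, and that of 6 skeletal muscle markers was 1707 FPKM there and 25.4 to 212 FPKM elsewhere. The 10 neuronal markers, which the DRG label calls for, summed to 10071 to 10828 FPKM in LAS libraries and 10340 to 10762 FPKM in sham libraries. Sums of 6 satellite glia markers were 2643 to 2803 FPKM in LAS libraries and 2865 to 3045 FPKM in sham libraries. Those of 6 Schwann cell markers were 3723 FPKM in LAS replicate 1 and 4581 to 5906 FPKM elsewhere. Those of 5 leptomeningeal markers were 1134 FPKM in LAS replicate 2 and 176 to 269 FPKM elsewhere. Because of sham replicate 3, results are also given without it.

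Motor genes were abundant in DRG. Of the 56, 14 averaged at least 100 FPKM over the 6 libraries, which is 25.0%, against 3.78% of all genes with values. A further 14 averaged 10 to 100 FPKM, 12 averaged 1 to 10 FPKM, and 16 were below 1 FPKM. The highest was Klc1, a light chain that links kinesin-1 to cargo, at rank 40 of all genes. The filter for testing, at least 0.5 FPKM in at least 3 libraries, kept 44 of the 56 and 14006 genes in all. Left out were 7 mitotic kinesins, the ciliary Kif24, Kif27 and Kif6 at 0.10 to 0.45 FPKM, and Kif12 and Kif28, which were at 0.00 to 0.03 FPKM in every library.

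**Figure D1:**
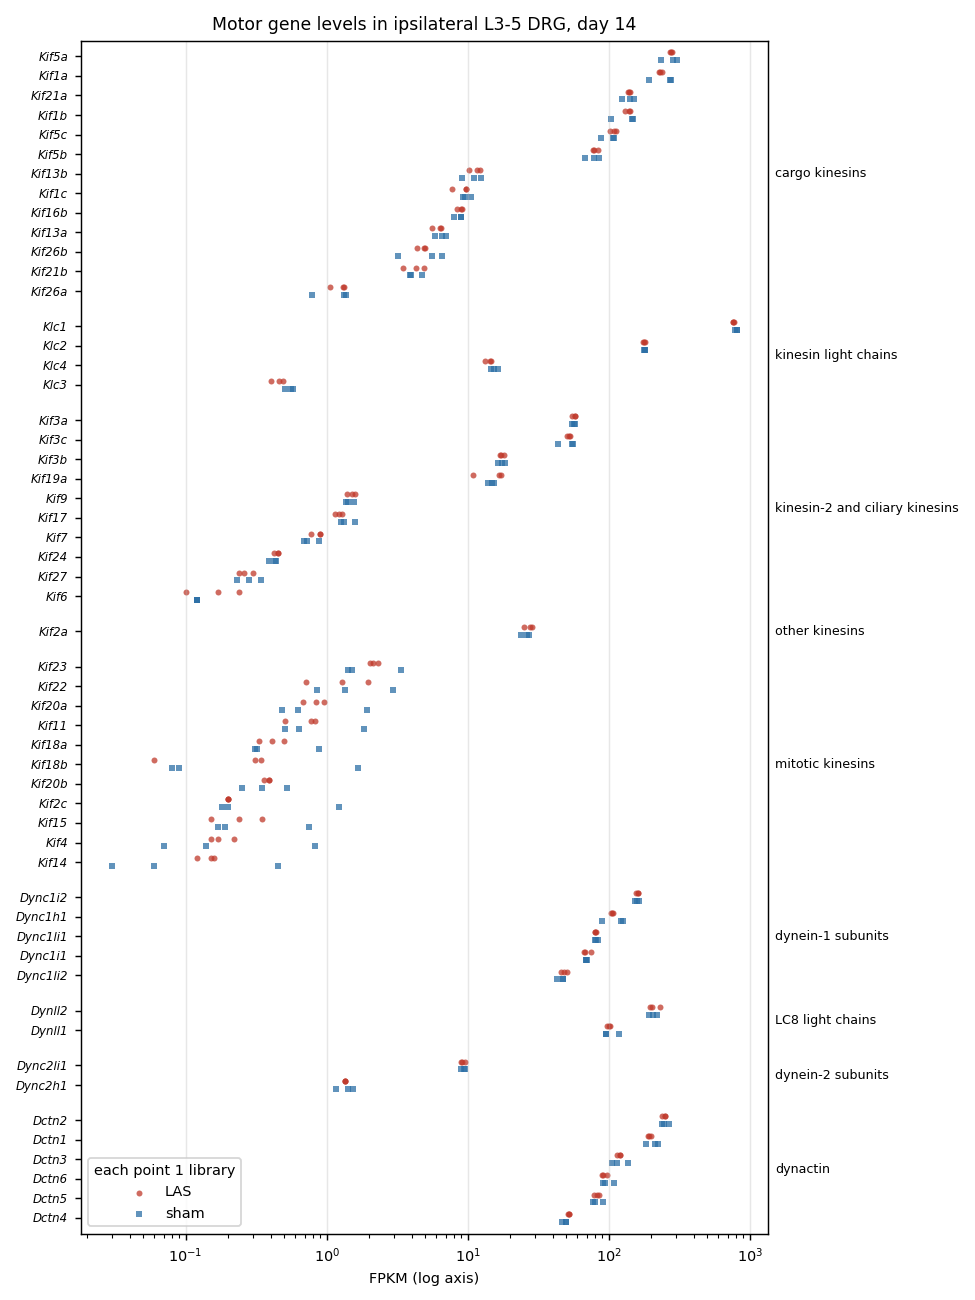
Levels of the motor genes that averaged at least 0.05 FPKM, 1 row per gene, grouped by role; the x axis is FPKM on a log scale, circles are the 3 LAS libraries and squares the 3 sham libraries. Klc1 lies farthest right at 762 to 813 FPKM, and in most rows the points of both groups lie on top of each other, while 1 sham point lies to the right in the mitotic kinesins.

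No motor gene differed between LAS and sham by the test. By limma on log2(FPKM + 0.1), 0 of the 44 tested motor genes had an adjusted p of at most 0.05 with a fold of at least 1.5, and the same held for 0.00% of the 14006 genes. At an unadjusted p of at most 0.05, 0 of 44 motor genes stood beside 3.53% of all genes, 2.22% higher and 1.31% lower in LAS. The smallest unadjusted p of a motor gene was 0.124, for Klc4, and every adjusted p was 0.9998. The median log2 fold change was -0.0042 over the 44 motor genes and 0.0043 over all tested genes. The 95% interval lay inside a fold of 1.5 in either direction for 37 of the 44, against 82.5% of all genes. The intervals that went beyond it were those of Klc3, Kif26a, Kif26b and the 4 tested mitotic kinesins, so the data do not exclude a difference of that size for these 7. No source says that libraries are separate animals, so every p here reflects library spread only. In whole ganglia, fewer cells of a type and less RNA per cell cannot be told apart.

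**Figure D2:**
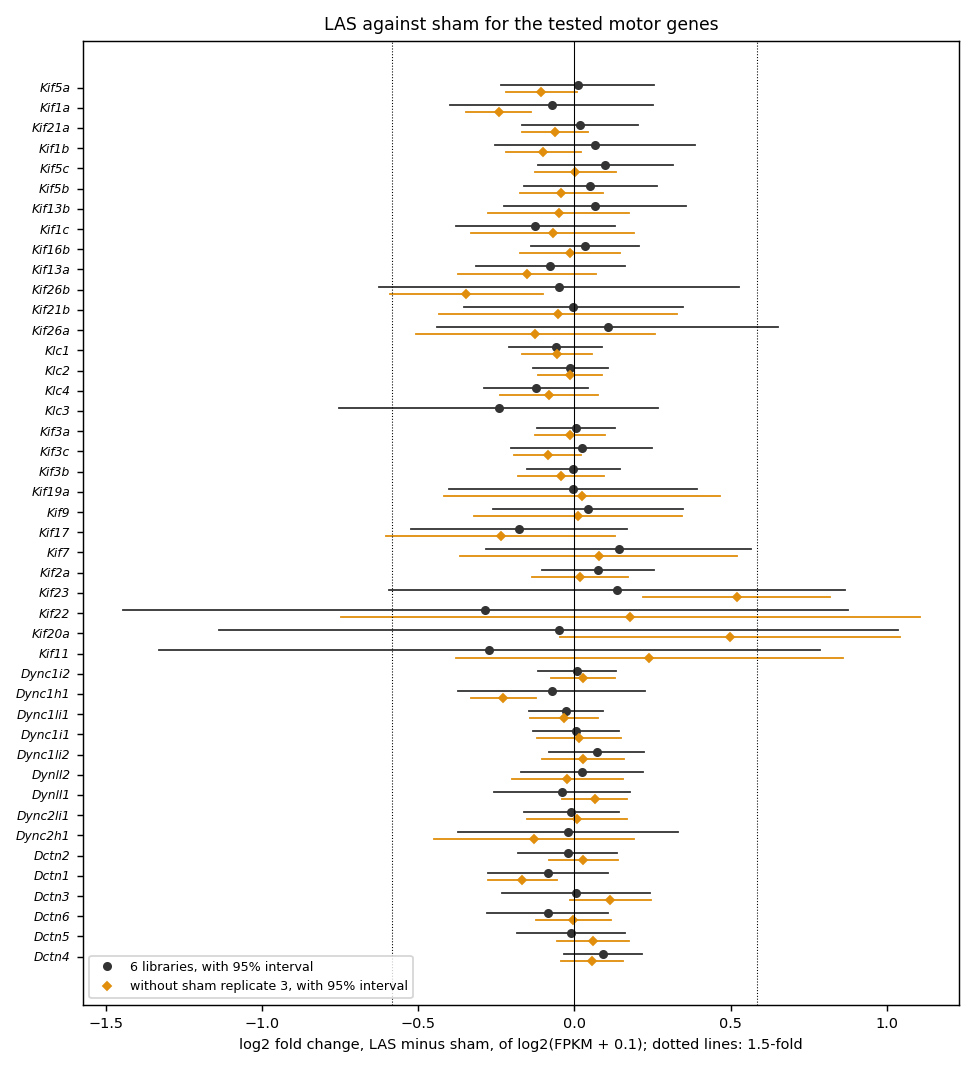
Log2 fold change of LAS over sham for the 44 tested motor genes, 1 row per gene, on the log2(FPKM + 0.1) scale; points with lines are estimates with 95% intervals from all 6 libraries (black circles) and without sham replicate 3 (orange diamonds), and dotted lines mark a fold of 1.5. Most intervals are narrow and cross 0, the 4 mitotic kinesins have the widest ones, and the intervals of Kif1a and Dync1h1 lie wholly left of 0 without sham replicate 3 but not with it.

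The 3 LAS and the 3 sham libraries did not overlap in 3 of 44 motor genes, against 9.70% of all genes, so the share was not above the background. The count was 1 higher in LAS, against 5.89% of all genes, and 2 lower, against 3.81%. Klc1 was at 780.1, 762 and 764 FPKM in LAS libraries, against 785, 813 and 807 FPKM in sham libraries. Every LAS library was below every sham library, by little: the log2 fold change was -0.06 (standard error 0.06). Klc3, a light chain that was barely detected, was at 0.40, 0.49 and 0.46 FPKM in LAS libraries, against 0.51, 0.56 and 0.58 FPKM in sham libraries. It had a log2 fold change of -0.24 (standard error 0.22) and passed the filter only through its sham libraries. Dctn4, the p62 subunit at the pointed end of dynactin, went the other way, at 52.0, 52.7 and 51.3 FPKM in LAS libraries, against 50.1, 49.9 and 46.5 FPKM in sham libraries. The fit gave a log2 fold change of 0.09 (standard error 0.05) with an interval of -0.03 to 0.22. Klc2, the next light chain by level, was at 179, 174 and 182 FPKM in LAS libraries and 181, 179 and 179.6 FPKM in sham libraries, and the groups overlapped. Klc4 was at 14.4, 13.3 and 14.7 FPKM in LAS libraries, against 14.5, 15.3 and 16.3 FPKM in sham libraries, with an overlap of LAS and sham values and a log2 fold change of -0.12 (standard error 0.07). Klc1 made up 79.5% to 80.6% of the summed light chain FPKM in all 6 libraries.

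Heavy chains of kinesin-1, the partners of these light chains and carriers of mitochondria and vesicles, were led by Kif5a, the neuronal form. Kif5a was at 277, 271 and 280.5 FPKM in LAS libraries and 288, 307 and 234 FPKM in sham libraries. Kif5c, also neuronal, was at 112, 102 and 109.8 FPKM in LAS libraries and 107, 109 and 88.2 FPKM in sham libraries, and the ubiquitous Kif5b at 78.5, 77.1 and 83.8 FPKM in LAS libraries and 79.3, 84.9 and 67.7 FPKM in sham libraries. In all 3 genes the lowest value was that of sham replicate 3, and the groups overlapped. The order Kif5a, Kif5c, Kif5b held in each of the 6 libraries. Kif5a took 59.2% to 61.3% of the kinesin-1 FPKM, Kif5c 21.8% to 24.1% and Kif5b 16.7% to 17.7%, so the makeup differed little. Sequence is alike among these paralogs, and how reads shared between them were assigned is not stated in the sources used here.

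Kif1a and Kif1b are kinesin-3 motors, which carry synaptic vesicle precursors and dense core vesicles. Kif1a was at 231, 229 and 239.8 FPKM in LAS libraries, against 274, 277 and 194 FPKM in sham libraries. All LAS values lay below sham replicates 1 and 2 and above sham replicate 3. Over 6 libraries the log2 fold change of Kif1a was -0.07 (standard error 0.14), with an interval of -0.40 to 0.25. Kif1b was at 140.2, 129.99 and 141 FPKM in LAS libraries and 148, 146 and 104 FPKM in sham libraries, and its sham values also spanned the LAS values. Kif21a, a kinesin-4 motor of neurons that restrains microtubule growth, was at 138, 140.4 and 141 FPKM in LAS libraries and 142, 150.1 and 124 FPKM in sham libraries, with the same pattern. Kif21a and Kif1b were too close in level to order, since the higher of the pair changed from library to library.

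Ratios were computed for 6 pairs of related subunits, and groups overlapped in 5 of them. The exception was the ratio of Kif1a to Kif1b FPKM, at 1.65, 1.76 and 1.70 in LAS libraries, against 1.86, 1.90 and 1.86 in sham libraries. This is 1.70 ± 0.056 (SD, n = 3) in LAS and 1.87 ± 0.023 (SD, n = 3) in sham libraries. Of the summed FPKM of Kif1a, Kif1b and Kif1c, Kif1a made up 61.0%, 62.1% and 61.4% in LAS libraries. In sham libraries Kif1a made up 63.6%, 64.1% and 62.8% of this sum. Unlike the level of Kif1a, these values did not set sham replicate 3 apart from the other sham libraries. The longest transcripts of the pair are 8206 bases for Kif1a and 10233 bases for Kif1b. How reads shared between Kif1a and Kif1b were assigned is not stated in the sources used here either. The LAS and sham ratios do not overlap, which for 3 libraries against 3 corresponds to the smallest p that a two-sided exact permutation test allows, 0.10. It was 1 of 6 ratios, and ratios of other genes were not computed as a background. The other pairs were Kif5a and Kif5c, Klc1 and Klc2, Dync1i2 and Dync1h1, Dctn2 and Dctn1, and Dynll1 and Dynll2. Shares were computed for 19 genes of 7 families and did not overlap between groups for 3, beside 9.70% for the levels of all genes. These were Kif1a and Klc3, lower in LAS, and Kif1b, higher in LAS. They are not separate observations, since Kif1a and Kif1b are nearly the whole of one total, and Klc3 passed the filter only through sham libraries.

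Of the other genes listed as cargo kinesins, Kif13b, Kif1c, Kif16b and Kif13a, which carry vesicles and endosomes, and Kif21b lay between 3.46 and 12.4 FPKM. The list also holds Kif21a, Kif26a and Kif26b, so its name does not state a cargo role for each gene. Kif26a was at 0.79 to 1.37 FPKM. Kif26b, an atypical kinesin with roles in development, was at 4.90, 4.39 and 4.98 FPKM in LAS libraries, against 5.61, 6.56 and 3.22 FPKM in sham libraries. Its value in sham replicate 3 was the lowest and those in the other sham libraries the highest. Over 6 libraries the log2 fold change was -0.05 (standard error 0.24).

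Kinesin-2 pairs Kif3a with Kif3b or Kif3c and serves both axons and cilia. Kif3a was at 58.1, 54.7 and 58.1 FPKM in LAS libraries and 58.1, 57.0 and 55.1 FPKM in sham libraries, Kif3c at 53.4, 50.8 and 52.1 FPKM in LAS libraries and 54.7, 55.9 and 44.0 FPKM in sham libraries, and Kif3b at 18.0, 17.2 and 16.9 FPKM in LAS libraries and 17.4, 18.4 and 16.5 FPKM in sham libraries. The groups overlapped in each of them. Kif19a, which shortens microtubules in motile cilia, ranged from 10.9 to 17.1 FPKM in LAS libraries, with the low value in LAS replicate 1, and from 13.9 to 15.3 FPKM in sham libraries. Kif17, a homodimeric kinesin-2 of dendrites and cilia, was at 1.28, 1.15 and 1.22 FPKM in LAS libraries, against 1.32, 1.59 and 1.27 FPKM in sham libraries. The fitted difference on the log2 scale was -0.18 (standard error 0.15). Kif7, a regulator of Hedgehog signaling at the cilium tip, was at 0.89, 0.78 and 0.89 FPKM in LAS libraries, against 0.73, 0.88 and 0.69 FPKM in sham libraries, with a log2 fold change of 0.14 (standard error 0.18). These values overlapped between groups, and Kif9 was at 1.38 to 1.59 FPKM. Among other kinesins, Kif2a, which takes tubulin off microtubule ends, was at 28.5, 25.2 and 27.8 FPKM in LAS libraries and 27.1, 26.5 and 23.7 FPKM in sham libraries, with overlapping groups.

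The retrograde motor was present with its subunits. Dync1h1 encodes the heavy chain that holds the motor of dynein 1, and it was at 106, 104 and 108 FPKM in LAS libraries, against 122, 126 and 89.8 FPKM in sham libraries. The LAS values lay close together, between those of sham replicate 3 and the other sham libraries. For Dync1h1 the log2 fold change was -0.07 (standard error 0.13), with an interval of -0.37 to 0.23. Dync1i2, an intermediate chain that joins dynein to dynactin, was at 162, 161 and 157 FPKM in LAS libraries and 154, 160.1 and 163 FPKM in sham libraries. Dync1li1, a light intermediate chain that binds cargo adaptors, was at 79.5, 79.8 and 81.2 FPKM in LAS libraries and 79.7, 84.6 and 81.0 FPKM in sham libraries, while its partner Dync1li2 and the neuronal intermediate chain Dync1i1 lay between 43.3 and 74.5 FPKM. Groups overlapped in all 5 dynein 1 genes. Dynein 2, which returns cargo within cilia, was low: Dync2li1 was at 8.92, 9.10 and 9.62 FPKM in LAS libraries and 9.35, 8.96 and 9.53 FPKM in sham libraries, and its heavy chain Dync2h1 at 1.34, 1.34 and 1.35 FPKM in LAS libraries and 1.54, 1.42 and 1.16 FPKM in sham libraries. The LC8 light chains, which also serve proteins outside dynein, were at 230.5, 196 and 204 FPKM in LAS libraries and 220.1, 206 and 193 FPKM in sham libraries for Dynll2. Dynll1 was at 101, 102 and 97.3 FPKM in LAS libraries and 96.5, 95.2 and 119 FPKM in sham libraries. The highest Dynll1 value was that of sham replicate 3.

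Dynactin ties dynein to cargo and to the microtubule. Dctn2, its p50 subunit dynamitin, was at 250.2, 253 and 238 FPKM in LAS libraries and 239, 245 and 269 FPKM in sham libraries. Dctn1, the p150 subunit that grips the microtubule, was at 193, 189 and 198 FPKM in LAS libraries, against 212, 222 and 183 FPKM in sham libraries, and its log2 fold change was -0.09 (standard error 0.08). Dctn3, the small p24 subunit, was at 121, 121 and 115 FPKM in LAS libraries and 105, 115 and 138 FPKM in sham libraries. Groups overlapped in these 3 genes, and sham replicate 3 was lowest in Dctn1 and highest in Dctn2 and Dctn3. Dctn5 and Dctn6 at the pointed end were at 77.9 to 109.95 FPKM and were also highest in sham replicate 3.

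Much of the spread among sham libraries came from sham replicate 3. It held the single lowest value of 21 of the 44 tested motor genes, against 25.0% of all tested genes, and the single highest value of 13, against 33.4%. Of 13 cargo kinesins, 10 were lowest in this library, and their summed FPKM was 1019, 995 and 1044 in LAS libraries, against 1085, 1123 and 853 in sham libraries. All 11 mitotic kinesins and 4 of 6 dynactin subunits were highest there. The median coefficient of variation of the tested motor genes was 4.44% among LAS libraries and 9.80% among sham libraries, and that of all tested genes was 6.38% among LAS and 9.18% among sham libraries.

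**Figure D3:**
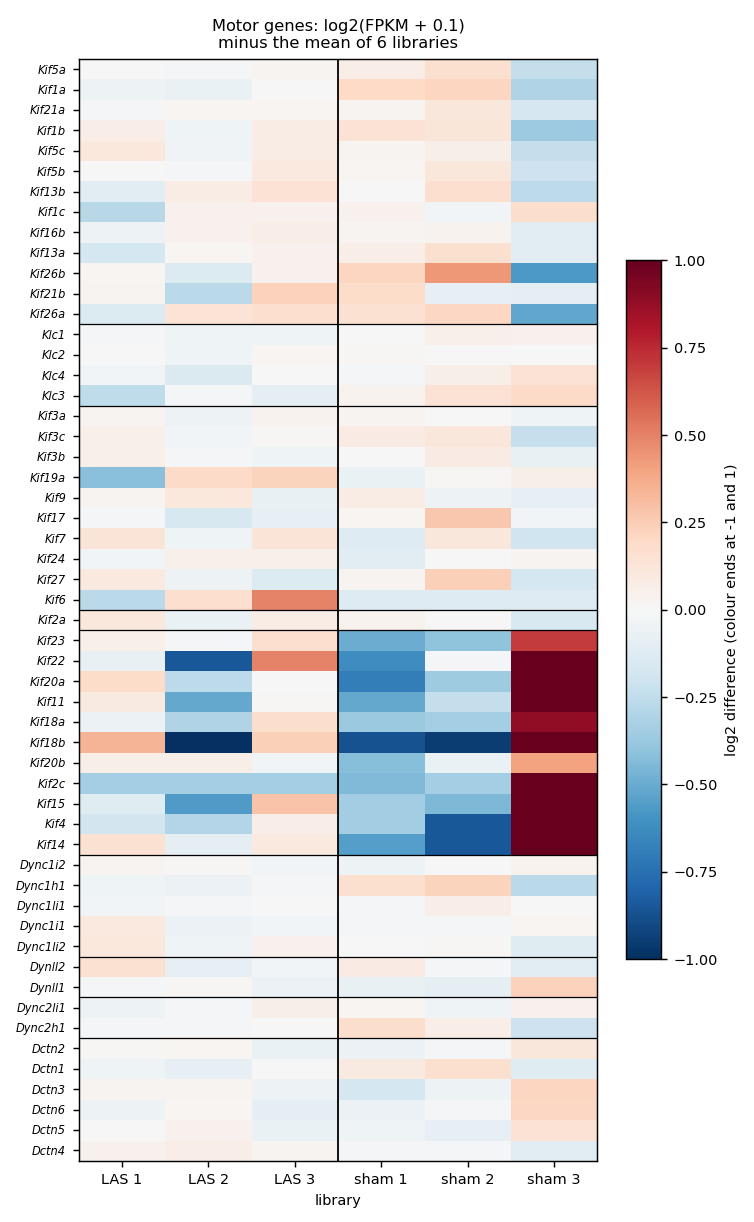
Log2(FPKM + 0.1) of each motor gene minus its mean over the 6 libraries, as colour (red above, blue below, ending at -1 and 1); columns are LAS replicates 1 to 3 and sham replicates 1 to 3, rows are genes grouped by role. The column of sham replicate 3 holds the lowest value of 10 of 13 cargo kinesins and the highest of the 11 mitotic kinesins. The LAS columns are pale apart from the mitotic kinesins, Kif19a in LAS replicate 1 and a few genes of low level.

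Transcript length went with these deviations. The tested motor genes had a median longest transcript of 4029.5 bases, against 3168 bases for the 13602 tested genes with a length, from 973 bases in Dctn3 to 14342 bases in Dync1h1. Across the 44 motor genes, length and the log2 difference of sham replicate 3 from sham replicates 1 and 2 had a Spearman correlation of -0.78, and -0.86 across the 40 that were not mitotic kinesins. The same correlation over all 13602 genes was -0.58, so the relation was common to the transcriptome. For genes of over 8000 bases the median difference was -0.46 in the 7 motor genes and -0.25 in all 769 genes. Length and the difference of LAS from sham replicates 1 and 2 had a correlation of -0.54 over 44 motor genes, -0.58 without the mitotic kinesins and -0.25 over all genes. These correlations run across genes of shared libraries and describe them only.

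**Figure D4:**
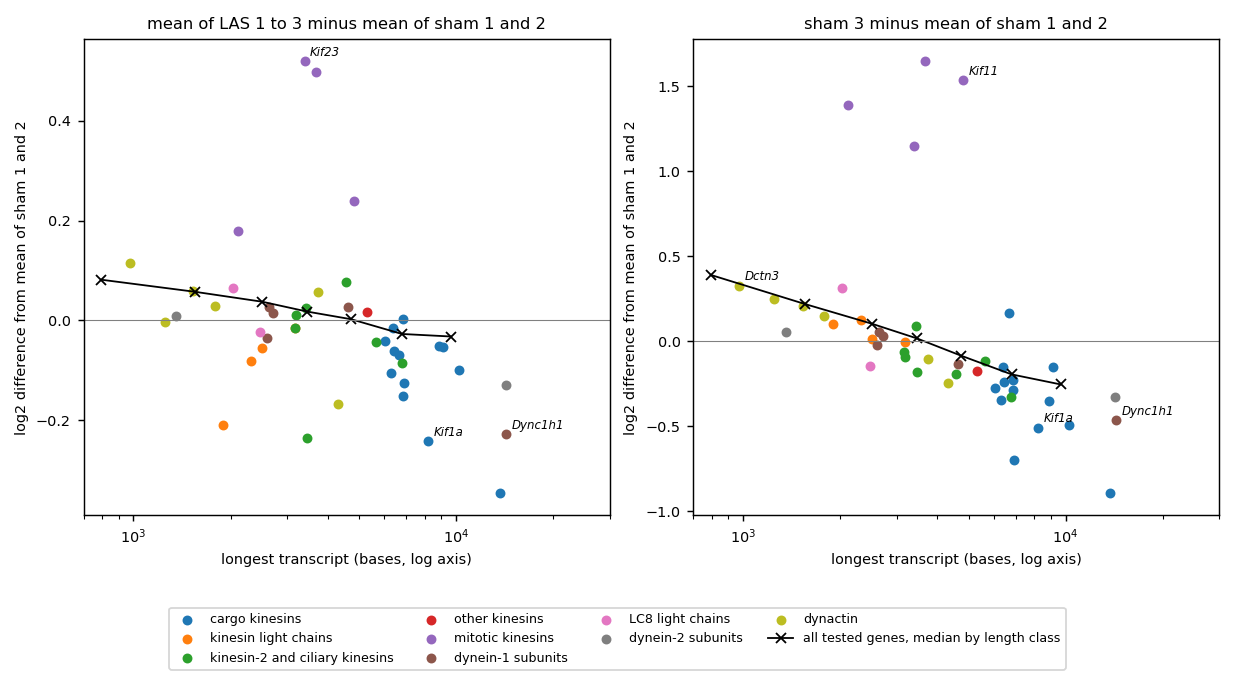
Log2 difference from the mean of sham replicates 1 and 2 against the longest annotated transcript in bases (log axis), for the mean of LAS replicates 1 to 3 on the left and sham replicate 3 on the right, on y axes of different range; points are the 44 tested motor genes by role, and crosses joined by a line are medians of all tested genes by length class. The line falls with length in both panels, the long Kif1a and Dync1h1 lie below it, and the 4 mitotic kinesins lie above it.

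Without sham replicate 3, 0 of 43 tested motor genes passed the test, beside 0.00% of 13865 genes by limma, and Klc3 no longer passed the filter. An unadjusted p of 0.05 or less was found in 5 of 43, against 10.2% of all genes. Lower in LAS were 4 of 43, against 3.74% of all genes, and 1 was higher, against 6.47%. The 4 lower genes were Kif1a, with a log2 fold change of -0.24 (standard error 0.04) and an adjusted p of 0.227; Dync1h1, with -0.23 (standard error 0.04) and 0.274; Dctn1, with -0.17 (standard error 0.05) and 0.376; and Kif26b, with -0.35 (standard error 0.10) and 0.379. The higher gene was Kif23, with 0.52 (standard error 0.13) and 0.351. LAS and sham values did not overlap in 16 of 43 motor genes, against 28.9% of all genes. Of these, 12 were lower in LAS, against 11.4% of all genes, and 4 were higher, against 17.5%. Among the 13 cargo kinesins, 12 had a negative log2 fold change, with a median of -0.07, against 0.023 over all tested genes. No share of negative genes over all genes was counted. The longest transcripts of these kinesins are 6032 to 13749 bases. Over all genes of 6000 to 8000 bases the median difference of LAS from sham replicates 1 and 2 was -0.027, and above 8000 bases it was -0.032. Of the 13, 6 did not overlap, all lower in LAS: Kif5a, Kif1a, Kif21a, Kif1b, Kif13a and Kif26b. The other 6 lower genes were Dync1h1, Dync2h1, Dctn1, Klc1, Kif3c and Kif17, and the 4 higher ones Dctn4, Dynll1, Kif23 and Kif20a.

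The trend with transcript length was then taken out of each library, in a step chosen after the data were seen. With all 6 libraries, 0 of 44 motor genes passed the test, beside 0.00% of 13602 genes. At an unadjusted p of 0.05 or less stood 0 of 44 motor genes and 5.12% of all genes, and groups did not overlap in 4 of 44 motor genes, against 11.7% of all genes. With sham replicate 3 left out, 0 of 43 passed the test, beside 0.00% of 13471 genes, and 5 of 43 motor genes again had an unadjusted p of at most 0.05, against 9.34% of all genes. They were Kif1a, Dync1h1, Dctn1, Kif26b and Kif23 again. Kif1a then had a log2 fold change of -0.18 (standard error 0.04) with an adjusted p of 0.402, and Dync1h1 had -0.15 (standard error 0.04) with 0.478. In this fit 8 of 13 cargo kinesins were then negative, with a median of -0.018, against 0.023 over all genes. LAS and sham values did not overlap in 9 of 43 motor genes, against 28.3% of all genes. Of these, 6 were lower in LAS, against 10.5% of all genes, and 3 were higher, against 17.8%. In none of these fits did limma call a motor gene.

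The mitotic kinesins were low, and each was highest in sham replicate 3. They separate spindle poles, move chromosomes or close the cell at division. Kif23, the motor of centralspindlin at the midzone, was at 2.12, 2.03 and 2.31 FPKM in LAS libraries, against 1.42, 1.52 and 3.38 FPKM in sham libraries. Kif22, which pushes chromosome arms, was at 1.29, 0.71 and 1.96 FPKM in LAS libraries, against 0.85, 1.34 and 2.97 FPKM in sham libraries, with a log2 fold change of -0.29 (standard error 0.49) over 6 libraries. Kif11, which slides spindle poles apart, was at 0.83, 0.51 and 0.78 FPKM in LAS libraries, against 0.51, 0.64 and 1.85 FPKM in sham libraries, with -0.27 (standard error 0.45). In each of them the LAS values lay below sham replicate 3, whose value in Kif11 was 2.23 times the next highest. Kif20a, a motor of cytokinesis, was at 0.96, 0.68 and 0.84 FPKM in LAS libraries and 0.48, 0.63 and 1.94 FPKM in sham libraries. Kif18b, which trims microtubules near the cell cortex, was at 0.34, 0.06 and 0.31 FPKM in LAS libraries, against 0.09, 0.08 and 1.67 FPKM in sham libraries, so that sham replicate 3 was 4.91 times the next highest library. Kif2c, which corrects faulty attachments at centromeres, was at 0.20, 0.20 and 0.20 FPKM in LAS libraries, against 0.18, 0.20 and 1.22 FPKM in sham libraries, and here the factor was 6.10. The remaining Kif18a, Kif20b, Kif15, Kif4 and Kif14 were at 0.03 to 0.88 FPKM and were highest in sham replicate 3 too.

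Summed over the 11 mitotic kinesins, the level was 7.11, 5.33 and 7.98 FPKM in LAS libraries, against 4.48, 5.35 and 16.5 FPKM in sham libraries. Sham replicate 3 had the highest sum, and LAS replicate 2 was level with sham replicate 2. Markers of proliferation ran alongside. All 14 were highest in sham replicate 3, and their sums were 20.5, 9.29 and 18.2 FPKM in LAS libraries, against 9.91, 11.8 and 57.7 FPKM in sham libraries. Among LAS libraries, replicate 2 had the lowest sum in both lists. It was also the lowest LAS library in the myeloid marker sum, at 398, 105 and 245 FPKM in LAS libraries, against 63.1, 93.7 and 2007 FPKM in sham libraries. The part of these cells in the mitotic kinesin values was not tested. Without sham replicate 3, Kif23 and Kif20a were higher in every LAS library than in both sham libraries, Kif23 at a log2 fold change of 0.52 (standard error 0.13), while Kif11 and Kif22 overlapped.

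**Figure D5:**
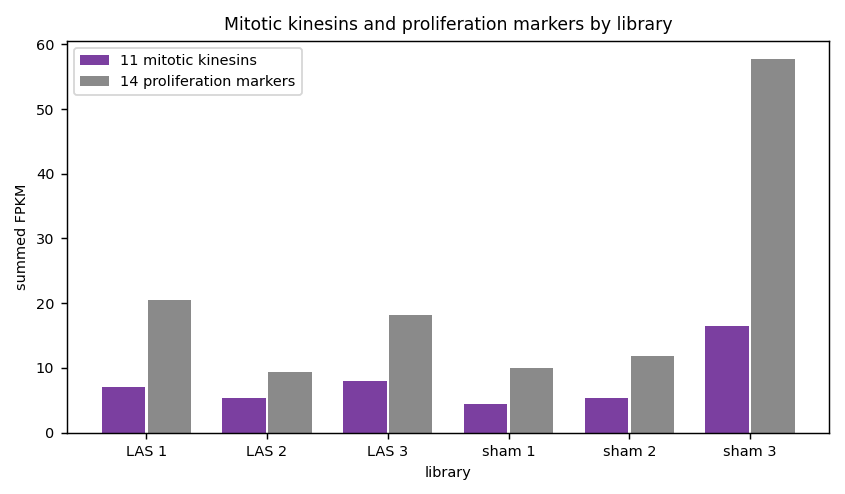
Summed FPKM of the 11 mitotic kinesins (purple bars) and of 14 proliferation markers (grey bars) in each library, LAS replicates 1 to 3 at left and sham replicates 1 to 3 at right, on a linear axis from 0. Sham replicate 3 holds the tallest bars of both lists, 16.5 and 57.7 FPKM, and LAS replicates 1 and 3 stand above LAS replicate 2 and sham replicates 1 and 2.

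Promoters of most of these kinesins held the same hexamer. The hexamer TTTGAA, which reads TTCAAA on the opposite strand, is the core of the cell cycle genes homology region, an element at which the DREAM complex holds mitotic genes down in cells that do not divide. Promoters of 300 bases, 250 before the start and 50 after it, came from RefSeq on GRCm38.p6 for 43 of the 56 motor genes, and both strands were searched. Promoters on 1 chromosome were left out of the search and of all shares. The mitotic kinesin that was not searched was Kif20a. TTTGAA was found in 9 of 10 mitotic kinesins, in 4 of 33 other motor genes (Dctn1, Kif1a, Kif26b and Kif27) and in 17.9% of all 32851 promoters searched. Within 30 bases of the start, a window chosen after the matches were seen, it was found in 7 of 10 mitotic kinesins, 1 of 33 other motor genes (Kif26b) and 3.14% of all promoters. CCAAT, a box often found beside this element, was in 6 of 10 mitotic kinesins, 14 of 33 other motor genes and 37.4% of all promoters. A gene with more than 1 promoter counted if any of them matched, while the shares of all promoters count each promoter. A match is a description of the letters only. The 3 mitotic kinesins with the highest levels among those searched are shown with Kif18a, the searched mitotic kinesin without a match, and Dync1h1. Each is given as 250 bases before the start and 30 after it, 5′ to 3′ on the gene's strand. The hexamer, in either orientation, is in capitals.
Kif23, chr9:61946770-61947049, strand -: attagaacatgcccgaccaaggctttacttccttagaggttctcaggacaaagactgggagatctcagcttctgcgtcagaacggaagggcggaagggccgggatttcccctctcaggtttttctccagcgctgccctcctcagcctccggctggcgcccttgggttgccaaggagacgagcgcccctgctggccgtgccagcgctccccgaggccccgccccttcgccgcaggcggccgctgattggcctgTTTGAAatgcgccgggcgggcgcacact
Kif22, chr7:127042391-127042670, strand -: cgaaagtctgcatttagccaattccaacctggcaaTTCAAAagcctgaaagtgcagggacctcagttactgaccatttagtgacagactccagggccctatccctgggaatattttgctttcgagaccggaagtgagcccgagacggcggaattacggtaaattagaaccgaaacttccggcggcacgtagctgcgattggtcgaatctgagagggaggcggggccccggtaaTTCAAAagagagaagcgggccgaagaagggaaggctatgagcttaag
Kif11, chr19:37376132-37376411, strand +: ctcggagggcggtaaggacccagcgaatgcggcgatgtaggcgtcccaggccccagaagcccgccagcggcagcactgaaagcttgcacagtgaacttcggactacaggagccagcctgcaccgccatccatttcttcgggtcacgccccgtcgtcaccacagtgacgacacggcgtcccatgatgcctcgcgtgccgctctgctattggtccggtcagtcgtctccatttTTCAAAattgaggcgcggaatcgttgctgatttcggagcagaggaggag
Kif18a, chr2:109280488-109280767, strand +: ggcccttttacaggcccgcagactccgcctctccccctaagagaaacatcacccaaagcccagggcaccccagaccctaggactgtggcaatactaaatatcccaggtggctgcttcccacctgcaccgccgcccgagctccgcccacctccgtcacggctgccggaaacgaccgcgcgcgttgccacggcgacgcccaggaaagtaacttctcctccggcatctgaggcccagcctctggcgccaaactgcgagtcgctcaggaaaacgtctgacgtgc
Dync1h1, chr12:110601145-110601424, strand +: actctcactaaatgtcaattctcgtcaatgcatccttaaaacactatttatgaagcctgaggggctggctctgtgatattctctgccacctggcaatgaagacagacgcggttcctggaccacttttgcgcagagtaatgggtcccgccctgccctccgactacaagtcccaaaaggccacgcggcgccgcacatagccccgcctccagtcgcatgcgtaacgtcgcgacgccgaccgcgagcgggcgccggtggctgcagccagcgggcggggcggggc
Kif23 has its match 3 bases after the start, Kif11 19 bases before it, and Kif22 1 copy 17 bases before the start and another far upstream.

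Genes outside these symbols that work with the motors were grouped by function. Of 18 other motor subunits and related kinesins, all were tested and limma called 0. At an unadjusted p of at most 0.05, 0 were higher and 2 lower in LAS, beside the 2.22% and 1.31% of all genes given above. Kifc3, a minus end directed kinesin, was at 9.88, 10.3 and 11.3 FPKM in LAS libraries, against 12.3, 12.0 and 12.8 FPKM in sham libraries, with a log2 fold change of -0.24 (standard error 0.07), an unadjusted p of 0.0126 and an adjusted p of 0.9998. The groups did not overlap. Dynlrb2, a roadblock light chain, was at 0.43, 0.33 and 0.33 FPKM in LAS libraries, against 0.54, 0.85 and 0.99 FPKM in sham libraries. It passed the filter only through its sham libraries. The most abundant of this list were Dynlrb1, another roadblock chain, at 382 to 489 FPKM and Capzb, which caps actin and the dynactin filament, at 183 to 207 FPKM. Of 35 adaptors and regulators, 1 had an unadjusted p of at most 0.05. This was Arl8a, a GTPase that recruits kinesin to lysosomes and synaptic vesicle precursors, at 249, 259 and 244 FPKM in LAS libraries, against 232, 229 and 223 FPKM in sham libraries. It was higher in every LAS library, with a log2 fold change of 0.14 (standard error 0.05), an unadjusted p of 0.041 and an adjusted p of 0.9998. Rab3a, a GTPase of synaptic vesicles, was highest of this list at 398 to 424 FPKM, followed by Syt11 at 295 to 334 FPKM. Of 36 tubulins and microtubule-associated genes, 35 were tested and 1 had an unadjusted p of at most 0.05, Tuba1c, at 3.60, 4.59 and 4.28 FPKM in LAS libraries, against 5.63, 4.61 and 5.17 FPKM in sham libraries. The fit gave a log2 fold change of -0.30 (standard error 0.12) for it. Tuba1a and Tuba1b, the main alpha tubulins, were at 3203 to 3499 FPKM and 1872 to 2133 FPKM. Without sham replicate 3, limma again called 0 genes of these lists. An unadjusted p of 0.05 or less was then found in 2 of 17 other subunits (1 higher and 1 lower in LAS), in 7 of 35 adaptors (2 higher and 5 lower) and in 4 of 35 microtubule genes (1 higher and 3 lower), beside 6.47% of all genes higher and 3.74% lower. The smallest p of each of the last lists belonged to Mapk8ip3, an adaptor of kinesin and dynein, and to Map1a, which binds axonal and dendritic microtubules. Mapk8ip3 was at 119, 113 and 116 FPKM in LAS libraries, against 131, 132 and 109 FPKM in sham libraries. Map1a was at 270.3, 244 and 276 FPKM in LAS libraries, against 336, 309 and 201 FPKM in sham libraries. Both lay lower in all LAS libraries than in sham replicates 1 and 2, and lowest in sham replicate 3. Their log2 fold changes without that library were -0.18 (standard error 0.04) for Mapk8ip3, with an adjusted p of 0.35, and -0.29 (standard error 0.07) for Map1a, with 0.345.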

How the data were processed

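RNA of ipsilateral L3-5 DRG was sequenced by the authors on a BGISEQ-500, and the authors deposited FPKM values per gene for 3 LAS and 3 sham libraries. No aligner, annotation or genome build is named in the sources used. FPKM values carry no counts, so the depth behind each value is unknown and no counting interval is given. The authors also deposited p-values, q-values and log2 fold changes of their own comparison, which were not used.

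LAS and sham were compared on log2(FPKM + 0.1) by limma 3.58.1 (R 4.3.3), with its variance prior following the mean level. Genes that reached 0.5 FPKM in 3 or more of 6 libraries were tested, 14006 in all, and p-values were adjusted over them by Benjamini-Hochberg. Genes were called at an adjusted p of 0.05 or less with a fold of 1.5 or more. The pseudocount makes fold changes of low genes too small. The code was tested on simulated data with known changes. The motor genes, their role groups and the other lists were chosen with earlier results of these data known.

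Values in every library are given for the 3 highest genes of each role group, genes at an unadjusted p of at most 0.05, the 5 largest fold changes, and genes at 1 FPKM or more whose highest library was at least 2 times the next. Klc4, and Dctn4 and other genes whose groups do not overlap, Mapk8ip3 and Map1a were named after their values were seen. Alternatives covered the pseudocount, filter, scaling, variance model, replicate block, thresholds and leaving out each library. Removal of each library's trend with the longest GENCODE M21 protein-coding transcript was added after the data were seen. Promoters are those of the RefSeq table on GRCm38.p6, with 1 chromosome left out. Python 3.11.15, NumPy 2.4.6, pandas 2.3.3 and Matplotlib 3.10.9 were used for the other steps.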

Additional observations from a re-analysis of the deposited data

How the results depend on the processing

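No motor gene was called under any alternative, and the median log2 fold change of the motor genes stayed between -0.015 and 0.0058. Motor genes whose LAS and sham libraries do not overlap numbered 3 with all libraries, 3 to 16 when 1 library was left out (16 without sham replicate 3), 4 with the length trend removed and 9 with it removed and sham replicate 3 left out. Over all genes the share rose too, from 9.70% with all libraries to 28.9% without sham replicate 3. With fewer libraries, groups are more often apart by chance, so counts with all libraries and with 1 left out do not share a chance level. Other reasons for these rises were not tested. With array quality weights 4 motor genes and 1487 genes in all had an unadjusted p of at most 0.05, against 0 and 495.

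Signs turned for genes near 0 and for mitotic kinesins. Under array quality weights the log2 fold change was -0.079 for Kif5a, -0.053 for Kif1b, 0.20 for Kif11 and 0.30 for Kif22. It was -0.020 for Kif5a with the length trend removed. With sham replicate 3 also left out it was -0.057 for Kif5a, -0.028 for Kif1b, 0.27 for Kif11 and 0.15 for Kif22. Leaving out 1 library at a time gave -0.24 to 0.015 for Kif1a, -0.11 to 0.091 for Kif5a, -0.099 to 0.15 for Kif1b, -0.23 to 0.018 for Dync1h1, -0.35 to 0.16 for Kif26b, -0.077 to 0.52 for Kif23, -0.60 to 0.24 for Kif11 and -0.67 to 0.18 for Kif22. Dctn1 kept its sign, at -0.17 to -0.028.

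With the replicate number as a block, 0 motor genes were called, the median was -0.0042 and 321 genes had an unadjusted p of at most 0.05. Same-numbered libraries correlated at -0.41, 0.24 and -0.15 in their deviations from the group means. With 3 libraries per group such values cannot decide whether the numbers mark pairs. No source used here names pairs, and the numbers were not taken as such.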
